A study of Mus musculus with 6 samples.

Results

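Transcript levels of the enzymes of glycolysis, of the pyruvate dehydrogenase complex and its kinases, and of the pentose phosphate pathway were examined in whole corneas of mice with dry eye. The set was a list of 35 gene symbols matched to the symbols of the deposited expression table. The table held 34 of them, Fbp1 being absent from it, among 17794 genes in all. All 34 had enough reads to be tested, 13838 genes of the table being tested in total. Dry eye had been induced in every animal with benzalkonium chloride (BAC), a preservative detergent that injures the ocular surface. The corneas were taken after 10 days of treatment with vehicle in 3 samples and with luteolin, a plant flavone, in 3 samples. All corneas therefore came from damaged eyes, and undamaged corneas were not analysed here. Strain, sex, age, dose and route were not given in the sources used here, and the labels describe the cell types as multiple.

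Glycolysis splits glucose into pyruvate in the cytosol, and lactate dehydrogenase converts pyruvate to lactate. The pyruvate dehydrogenase complex instead passes pyruvate into the tricarboxylic acid cycle, and 4 kinases, Pdk1 to Pdk4, switch the complex off by phosphorylation. The pentose phosphate pathway branches from glucose phosphate and yields NADPH and ribose phosphate. The corneal epithelium is known for its reliance on glycolysis, its stores of glycogen and its high activity of the pentose phosphate pathway.

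Library totals ran from 16084855 to 16469699 estimated counts, and the spread between replicates exceeded counting noise (chi-square over its degrees of freedom from 6.30 to 30.3). Keratins and markers of the corneal epithelium were abundant in every library, with a summed level of 44250 to 52200 CPM (counts scaled to a common library size, with TMM factors) over 10 markers with vehicle and 76488 to 79263 CPM with luteolin. The labels do not say whether the samples came from separate animals, and the p-values therefore rest on the variation among these libraries alone, some of which may be technical. In whole tissue, fewer cells of a type and less RNA per cell cannot be told apart.

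Most glycolytic enzymes fell with luteolin, whereas the kinases Pdk1 and Pdk2 and the pentose phosphate enzymes G6pdx and Taldo1 rose. Gapdh, Pgk1, Pgam1 and Eno1 were 2.04-fold to 2.29-fold lower with luteolin, Pdk2 was 2.32-fold higher and Taldo1 1.52-fold higher. Of the 34 tested genes, 25 had a Benjamini-Hochberg adjusted p under 0.05 in edgeR's quasi-likelihood test over all genes, 10 of them higher and 15 lower. That is 73.5% of the set, where 58.9% of all tested genes were called (24 of 33 without Pdk4, whose passing of the filter depended on the vehicle group). The lower genes made up 44.1% of the set against 30.4% of all tested genes, and the higher genes 29.4% against 28.5%. Without Pdk4 the set had 42.4% lower and 30.3% higher. By branch, 13 of 18 genes of glycolysis and lactate formation fell and 2 rose, and 2 of 3 Pfkfb genes rose. Of 4 pyruvate dehydrogenase kinases 2 rose and 2 fell, with Pdk4 among the latter. In addition, 2 of 4 subunits of the complex and 2 of 5 pentose phosphate genes rose. Vehicle and luteolin libraries were fully apart for 26 of the 34 genes, or 76.5% (25 of 33 without Pdk4), and for 67.4% of all tested genes. The median log2 ratio of luteolin to vehicle was -0.31 over the set and -0.017 over all tested genes. Scaling by library size alone moved the median of all genes by -0.12 and left 8 genes of the set higher and 19 lower, and a correction for gene length moved it by 0.19 and left 12 higher and 11 lower. The share of lower genes among all called genes was 51.6% with TMM, 61.9% with upper quartile factors, 63.6% with library sizes only, 65.1% with log2(FPKM + 1), 65.3% with log2(FPKM + 0.1) and 34.6% with the length correction.

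**Figure D1:**
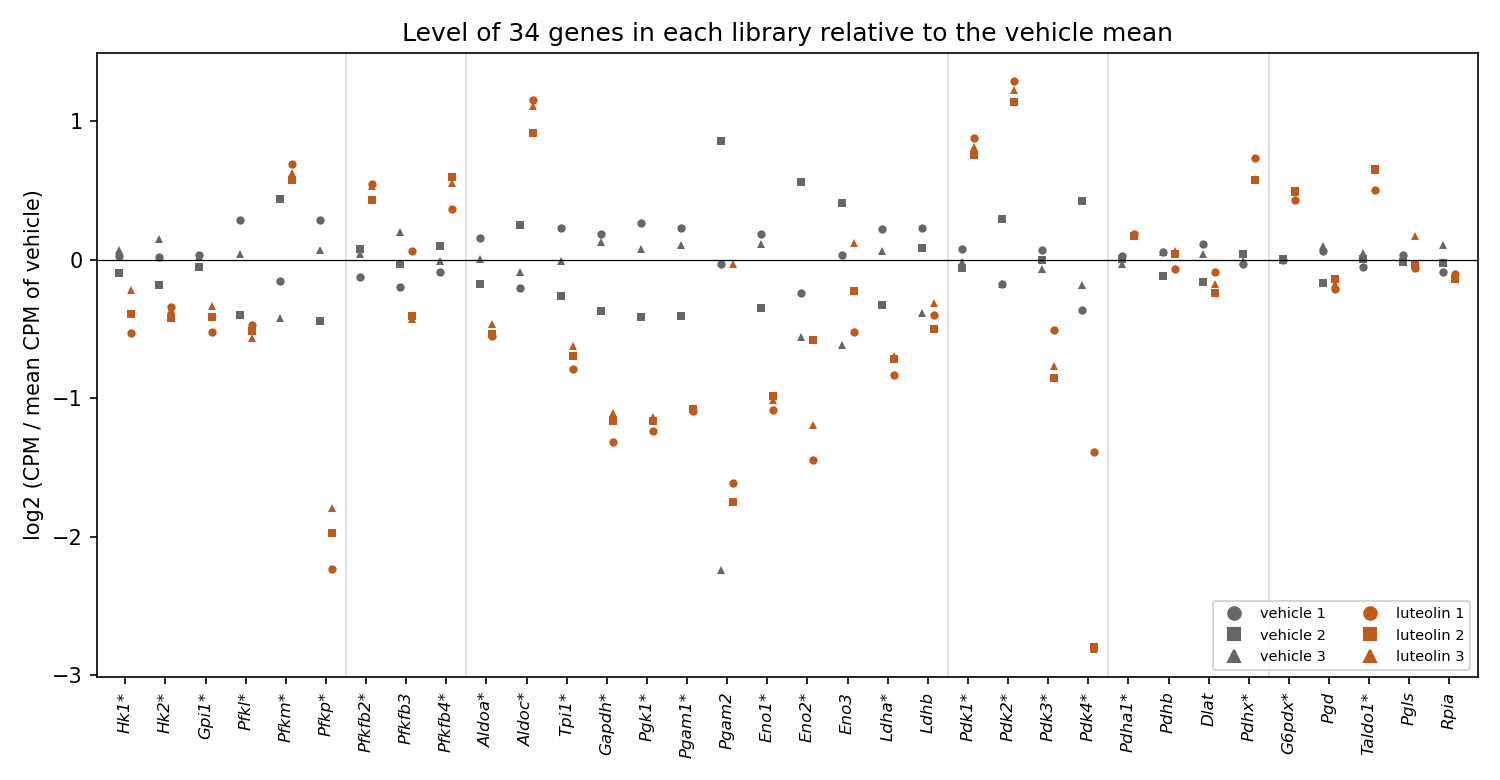
Level of each of the 34 genes in each library, as log2 of CPM over the vehicle mean of that gene, ordered by the pathway from hexokinase to ribose phosphate isomerase, with grey lines between branches and asterisks on genes with an edgeR adjusted p under 0.05. Points of both groups are apart for 26 genes: Gapdh, Pgk1, Pgam1 and Eno1 lie about 1 unit below the vehicle mean with luteolin, and Pdk1, Pdk2 and Aldoc lie above it.

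The 3 higher genes with the smallest p were Pdk1, Taldo1 and Pdk2, and the 3 lower ones were Pfkp, Gapdh and Eno1. Their promoters are shown because genes of glycolysis and Pdk1 are known targets of hypoxia-inducible factors, which bind a core of ACGTG or GCGTG. Each line gives the 250 bases before the first start listed by RefSeq (GRCm38.p6), read 5′ to 3′ on the strand of the gene. Capitals mark the cores on either strand and the E-box CACGTG, which contains ACGTG. The windows are chr2:71872974-71873223 on the plus strand for Pdk1, chr7:141391910-141392159 on the plus strand for Taldo1, chr11:95041372-95041621 on the minus strand for Pdk2, chr13:6648772-6649021 on the minus strand for Pfkp, chr6:125165774-125166023 on the minus strand for Gapdh and chr4:150236458-150236707 on the plus strand for Eno1.
Pdk1: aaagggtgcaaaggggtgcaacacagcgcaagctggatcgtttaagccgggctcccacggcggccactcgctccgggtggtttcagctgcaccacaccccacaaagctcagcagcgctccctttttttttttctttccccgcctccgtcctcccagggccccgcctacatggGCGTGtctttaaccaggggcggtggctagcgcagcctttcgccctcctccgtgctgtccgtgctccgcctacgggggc
Taldo1: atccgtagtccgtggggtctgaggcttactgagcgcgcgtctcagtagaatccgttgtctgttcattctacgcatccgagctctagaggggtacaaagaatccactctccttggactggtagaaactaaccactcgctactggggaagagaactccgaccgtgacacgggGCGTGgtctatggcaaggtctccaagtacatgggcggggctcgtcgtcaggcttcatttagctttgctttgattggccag
Pdk2: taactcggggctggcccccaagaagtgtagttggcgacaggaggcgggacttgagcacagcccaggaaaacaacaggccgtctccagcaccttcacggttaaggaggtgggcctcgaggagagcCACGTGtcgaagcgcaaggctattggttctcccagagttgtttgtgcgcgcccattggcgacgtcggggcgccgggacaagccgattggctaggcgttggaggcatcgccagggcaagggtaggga
Pfkp: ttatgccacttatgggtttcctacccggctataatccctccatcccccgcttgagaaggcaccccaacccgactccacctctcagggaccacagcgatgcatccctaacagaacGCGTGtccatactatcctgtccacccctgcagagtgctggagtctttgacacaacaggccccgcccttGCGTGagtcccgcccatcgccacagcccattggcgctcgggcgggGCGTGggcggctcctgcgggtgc
Gapdh: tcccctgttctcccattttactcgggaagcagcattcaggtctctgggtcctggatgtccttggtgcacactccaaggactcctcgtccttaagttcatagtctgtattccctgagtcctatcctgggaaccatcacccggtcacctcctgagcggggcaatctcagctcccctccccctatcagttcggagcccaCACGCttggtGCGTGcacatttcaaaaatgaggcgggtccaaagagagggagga
Eno1: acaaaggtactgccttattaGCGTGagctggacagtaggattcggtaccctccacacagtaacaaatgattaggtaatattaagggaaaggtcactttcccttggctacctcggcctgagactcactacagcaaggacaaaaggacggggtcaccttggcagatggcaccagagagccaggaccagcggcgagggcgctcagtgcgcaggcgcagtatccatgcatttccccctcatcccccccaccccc
A core was present in all 6 of these windows, in 3 that belong to genes that rose and 3 that belong to genes that fell. RefSeq lists 3 starts for Eno1 and 2 each for Pdk1 and Pdk2. Only the first was searched, and the start used in these corneas was not determined. All 34 tested genes matched a RefSeq entry. At least 1 core, on either strand, was found in 27 of their 34 windows, or 79.4%, and in 38.6% of the 32851 windows of the same length in the RefSeq table. The RefSeq share covers every listed start of all genes, expressed in the cornea or not. The share of the set covers only the first listed start of tested genes, so these shares are not like for like. By call, it was found in 10 of 10 windows of the higher genes, 10 of 15 of the lower genes and 7 of 9 of the genes not called. A match is a run of letters and was not tested as a binding site.

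At the entry to glycolysis the hexokinases and glucose phosphate isomerase fell modestly. Hk1 (gene ID 15275), the widely expressed hexokinase, stood at 59.0, 54.0 and 60.7 CPM with vehicle and 40.0, 44.1 and 49.7 CPM with luteolin, and Hk2 (gene ID 15277), the inducible form, at 32.4, 28.2 and 35.5 CPM against 25.2, 23.9 and 24.8 CPM. Every luteolin library lay below every vehicle library for both. The log2 ratios were -0.38 (SE 0.093, edgeR's adjusted p = 0.0106) and -0.38 (SE 0.097, edgeR's adjusted p = 0.0126), and the call of Hk1 ended after the length correction (log2 ratio -0.23, edgeR's adjusted p = 0.0899, adjusted p over all alternatives 0.00227 to 0.0899). Hk2 held 28.5% ± 1.19 of the summed hexokinase TPM (transcript abundance relative to gene length) with vehicle and 28.7% ± 2.34 with luteolin (SD, n = 3), so the balance of the pair differed by less than the spread between libraries. Gpi1, which converts glucose phosphate to fructose phosphate, stood at 274, 258 and 271 CPM with vehicle and 186, 200.4 and 212 CPM with luteolin, also without overlap, for a log2 ratio of -0.42 (SE 0.066, edgeR's adjusted p = 0.00143, and -0.25 after the length correction).

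The phosphofructokinase genes, which encode the subunits of the committing enzyme of glycolysis, moved in opposite directions. Pfkp (gene ID 56421), the platelet-type subunit with 3 cores in its promoter window, stood at 44.0, 26.5 and 37.8 CPM with vehicle and 7.67, 9.16 and 10.4 CPM with luteolin. It fell 3.97-fold (log2 ratio -1.99, SE 0.21, edgeR's adjusted p = 0.000261), and 4 libraries gave it fractional counts, which arise where reads are divided among similar genes. Pfkl (gene ID 18641), the liver-type subunit, stood at 92.5, 57.4 and 78.0 CPM with vehicle and 54.7, 53.1 and 51.4 CPM with luteolin. Vehicle 2 lay just above the luteolin libraries, and the call (log2 ratio -0.52, SE 0.16, edgeR's adjusted p = 0.0246) ended without any 1 library except vehicle 2 and after the length correction (edgeR's adjusted p 0.0587 to 0.0919, adjusted p over all alternatives 0.000463 to 0.0919). Pfkm (gene ID 18642), the muscle-type subunit, went the other way, with 38.8, 58.6 and 32.4 CPM with vehicle and 69.8, 64.3 and 66.5 CPM with luteolin. Its call (log2 ratio 0.63, SE 0.20, edgeR's adjusted p = 0.0275) ended without any 1 library except vehicle 2 (log2 ratios 0.44 to 0.65), with library sizes only (0.51), with upper quartile factors (0.53) and on both FPKM scales (0.52 and 0.54), and without vehicle 2 the value was 0.91. As a share of the summed phosphofructokinase TPM, Pfkm held 27.0%, 47.5% and 26.8% with vehicle and 59.7%, 58.0% and 58.8% with luteolin, while Pfkp held 25.3%, 17.9% and 24.9% against 5.196%, 6.23% and 7.16%. The summed TPM of the 3 genes itself reached 83.9, 71.0 and 67.8 in the vehicle libraries and 67.5, 63.2 and 64.2 in the luteolin libraries, which did not overlap but came close. Pfkl held 47.7%, 34.6% and 48.2% in the vehicle libraries and 35.1%, 35.8% and 34.1% in the luteolin libraries, so it overlapped between the groups, vehicle 2 lying within the luteolin range.

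**Figure D2:**
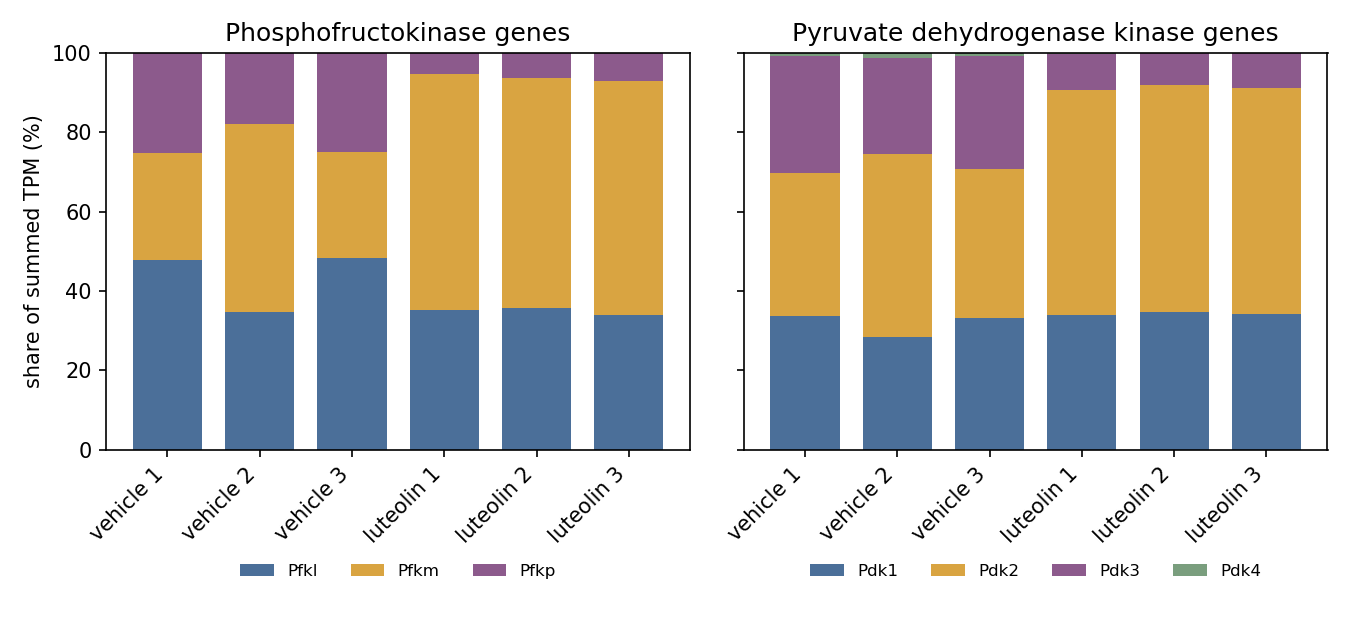
Share of each gene in the summed TPM of the phosphofructokinase genes (left) and of the pyruvate dehydrogenase kinase genes (right), with 1 bar per library and bars reaching 100%. Pfkm widens to between 58.0% and 59.7% and Pfkp narrows to at most 7.16% with luteolin, and Pdk2 widens to between 56.7% and 57.0% as Pdk3 narrows to at most 9.20%.

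The Pfkfb genes encode bifunctional enzymes that set the level of the sugar bisphosphate that activates phosphofructokinase. Pfkfb2 (gene ID 18640), known from heart, stood at 112, 129 and 125 CPM with vehicle and 178, 165 and 176 CPM with luteolin, a log2 ratio of 0.50 (SE 0.071, edgeR's adjusted p = 0.000921). Pfkfb4 stood at 30.9, 35.1 and 32.7 CPM against 42.4, 49.7 and 48.1 CPM (log2 ratio 0.51, SE 0.085, edgeR's adjusted p = 0.00195). Luteolin libraries lay above all vehicle libraries for both genes. Pfkfb3, the form known for its strong kinase activity and its induction in inflamed and proliferating cells, stood at 51.4, 57.6 and 67.7 CPM with vehicle and 61.6, 44.5 and 43.8 CPM with luteolin and did not pass (log2 ratio -0.24, edgeR's adjusted p = 0.226), with luteolin 1 inside the vehicle range. Without luteolin 1 it passed (log2 ratio -0.43, edgeR's adjusted p = 0.0269, adjusted p over all alternatives 0.0269 to 0.489). Its share of the summed Pfkfb TPM was 30.7% ± 2.51 with vehicle and 20.5% ± 3.29 with luteolin (SD, n = 3), with no overlap.

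The aldolases, which split the sugar bisphosphate, also diverged. Aldoa (gene ID 11674), the main form, stood at 486, 385 and 436 CPM with vehicle and 297, 300 and 316 CPM with luteolin (log2 ratio -0.52, SE 0.09, edgeR's adjusted p = 0.00231). The call of Aldoa ended after the length correction (log2 ratio -0.17, edgeR's adjusted p = 0.160, adjusted p over all alternatives 1.13e-07 to 0.160). Aldoc (gene ID 11676), the brain-type form, stood at 18.5, 25.3 and 20.0 CPM with vehicle and 47.2, 40.0 and 45.7 CPM with luteolin, 2.08-fold higher (log2 ratio 1.06, SE 0.13, edgeR's adjusted p = 0.000492). Aldoc was the minor form, at 2.43% ± 0.67 of the summed aldolase TPM with vehicle and 6.85% ± 0.56 with luteolin (SD, n = 3). Tpi1 (gene ID 21991), which interconverts the triose phosphates, stood at 411, 292 and 348 CPM against 202, 216 and 227 CPM, a log2 ratio of -0.70 (SE 0.12, edgeR's adjusted p = 0.0023) and of -0.36 after the length correction.

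The enzymes from glyceraldehyde phosphate to phosphoenolpyruvate fell by the widest margins among the abundant genes. Gapdh (gene ID 14433), often used as a reference gene, stood at 2116, 1441 and 2040 CPM with vehicle and 749, 833 and 866 CPM with luteolin. It was 2.29-fold lower (log2 ratio -1.19, SE 0.15, edgeR's adjusted p = 0.000528), and its counts had decimals in the 3 vehicle libraries. Pgk1 (gene ID 18655), which makes the first ATP of the pathway, stood at 446, 278 and 391 CPM against 158, 166 and 169 CPM, 2.26-fold lower (log2 ratio -1.18, SE 0.16, edgeR's adjusted p = 0.00076). Vehicle 2 was the lowest vehicle library for both genes and still lay above every luteolin library. Pgam1 (gene ID 18648), the general phosphoglycerate mutase, stood at 348, 225 and 320 CPM against 139, 141 and 142 CPM, 2.11-fold lower (log2 ratio -1.08, SE 0.15, edgeR's adjusted p = 0.000868). Eno1 (gene ID 13806), the general enolase, stood at 738, 511 and 702 CPM against 306, 329 and 323 CPM, 2.04-fold lower (log2 ratio -1.03, SE 0.13, edgeR's adjusted p = 0.000661), with decimals in 5 libraries. For these 4 genes the luteolin libraries sat close together and far below all vehicle libraries. No alternative that left out at most 1 library ended a call (log2 ratios from -0.76 to -1.35). Of all tested genes, 15.1% were called and lower by over 1 on the log2 scale. Pkm, the pyruvate kinase of most tissues and not in the set, stood at 1087, 813 and 1080 CPM with vehicle and 428, 445 and 468 CPM with luteolin (log2 ratio -1.15, SE 0.12).

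**Figure D3:**
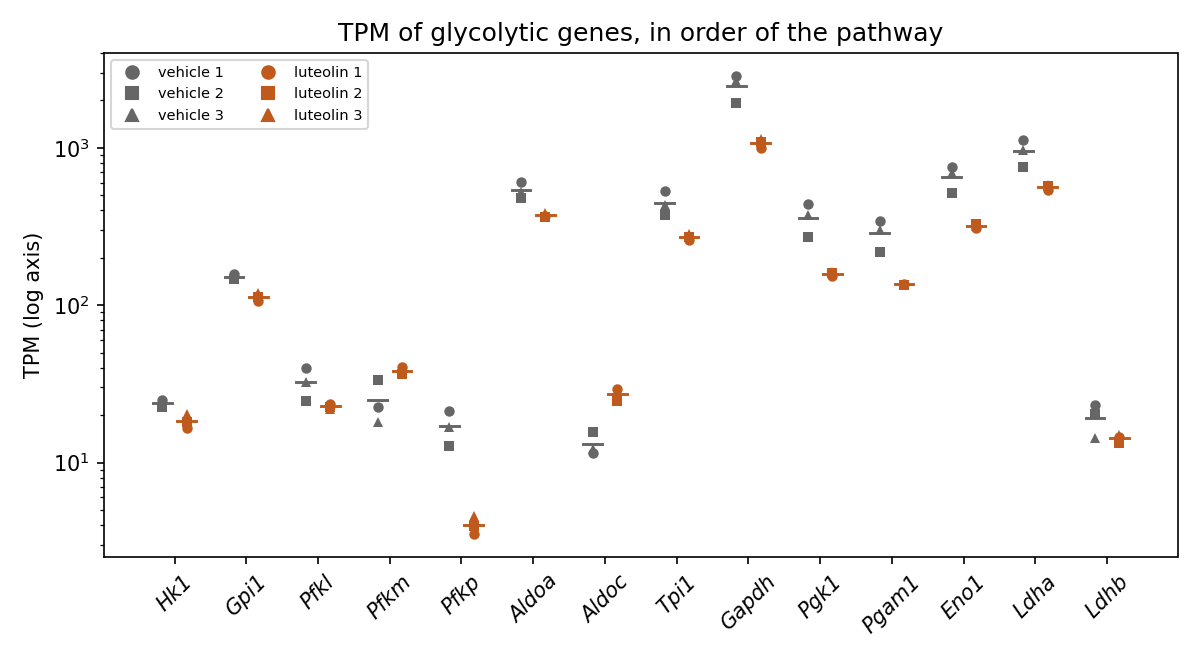
TPM of 14 glycolytic genes in each library on a log axis, in pathway order, with short lines at the group means. Gapdh is the most abundant at 1915 to 2866 TPM with vehicle and 1001 to 1132 TPM with luteolin, and Pfkm and Aldoc are the genes of the plot that are higher with luteolin.

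Lactate dehydrogenase, which regenerates the cofactor that Gapdh needs, was represented almost wholly by Ldha. Ldha (gene ID 16828) stood at 990, 677 and 887 CPM with vehicle and 478, 517 and 525 CPM with luteolin, 1.68-fold lower (log2 ratio -0.75, SE 0.13, edgeR's adjusted p = 0.00266, and -0.44 after the length correction). Ldhb, the heart-type subunit, stood at 15.01, 13.6 and 9.77 CPM against 9.67, 9.03 and 10.3 CPM and did not pass (log2 ratio -0.40, edgeR's adjusted p = 0.0803), but passed without vehicle 3 (-0.58), with library sizes only (-0.52), with upper quartile factors (-0.50) and on the FPKM scales (-0.49 and -0.53). Ldhb made up 2.03% ± 0.59 of the summed lactate dehydrogenase TPM with vehicle and 2.47% ± 0.17 with luteolin (SD, n = 3).

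Within glycolysis the abundant genes fell together. All 8 glycolytic genes with a vehicle mean of 100 TPM or more (Gpi1, Aldoa, Tpi1, Gapdh, Pgk1, Pgam1, Eno1 and Ldha) fell, whereas of the 10 less abundant ones 5 fell, 2 rose and 3 did not pass. Outside glycolysis, 5 genes of the set reached that level and none of them fell: G6pdx, Taldo1 and Pdha1 rose, and Pgd and Pgls did not pass. The shares over all tested genes were 30.4% lower and 28.5% higher. After the length correction Aldoa no longer passed (log2 ratio -0.17, edgeR's adjusted p = 0.160). Gpi1, Tpi1 and Ldha then stood at -0.25, -0.36 and -0.44, so the size of the joint fall depended on that setting. The summed TPM of the 18 genes of glycolysis and lactate formation reached 6998, 4854 and 6235 in the vehicle libraries and 3023, 3183 and 3272 in the luteolin libraries, 1.91-fold lower, with no overlap. Vehicle 2 was the lowest vehicle library for 12 of the 13 glycolytic genes that fell, and vehicle 1 the highest for 10.

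Markers of other cell types differed between the same libraries. All 9 macrophage markers fell, from a summed level of 199 to 354 CPM with vehicle to 34.7 to 46.5 CPM with luteolin. Of these, Fcgr1 was at 0.387, 0.845 and 0.257 CPM with luteolin and passed the filter only through the vehicle group, so its call is a description only. The 7 neutrophil markers summed to 33.4 to 50.0 CPM with vehicle and 1.23 to 2.38 CPM with luteolin. The 5 that could be tested fell, but they reached the filter on low counts through the vehicle group, so their count is a description only. S100a8, Mmp8, Cxcr1 and Ly6g were at 0 in the luteolin libraries (Cxcr1 and Ly6g were near 0 with vehicle too). Of 8 blood vessel markers 7 fell, from 150 to 254 CPM down to 34.9 to 41.5 CPM, while 9 of 10 epithelial markers rose. The epithelial markers include Tkt, which is also a gene of the pentose phosphate pathway and is described below as such. Over all tested genes 30.4% fell and 28.5% rose. Keratocyte markers, of which 3 of 10 fell and 1 rose, summed to 4891, 8883 and 3394 CPM with vehicle, highest in vehicle 2, and to 3952, 4576 and 2151 CPM with luteolin. The part of these cell types in the changes of the glycolytic genes was not tested.

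The set holds genes known from skeletal muscle, and muscle transcripts varied between the libraries of each group. Muscle markers summed to 145, 244 and 16.03 CPM over 16 genes in vehicle 1, 2 and 3 and to 19.9, 18.7 and 104 CPM in luteolin 1, 2 and 3, and 0 of the 13 tested passed. Ckm, the muscle creatine kinase gene, was at 0 in vehicle 3 and luteolin 2. Pgam2 (gene ID 56012), the muscle phosphoglycerate mutase, stood at 1.93, 3.57 and 0.417 CPM with vehicle and 0.645, 0.585 and 1.93 CPM with luteolin, and Eno3 (gene ID 13808), the muscle enolase, at 25.1, 32.6 and 15.97 CPM against 17.1, 20.9 and 26.7 CPM. Both were highest in vehicle 2 and both were higher in luteolin 3 than in the other luteolin libraries. Neither passed (log2 ratios -0.90 and -0.19, edgeR's adjusted p = 0.335 and 0.571), and with the muscle markers as a covariate the values were 0.056 and 0.087. Eno3 counts had decimals in all 6 libraries. Pfkm, also known from muscle, followed the order of the muscle sums among the vehicle libraries, highest in vehicle 2 and lowest in vehicle 3, but not among the luteolin libraries, where luteolin 1 was highest. With the covariate its log2 ratio was 0.79 (edgeR's adjusted p = 0.0117, adjusted p over all alternatives 0.000209 to 0.0894). Eno2, the neuronal enolase, stood at 3.85, 6.73 and 3.10 CPM with vehicle and 1.68, 3.05 and 1.995 CPM with luteolin. Its call (log2 ratio -1.02, SE 0.36, edgeR's adjusted p = 0.0433) ended with the covariate (-0.83), after the length correction (-0.83) and without vehicle 1 (-1.14), vehicle 2 (-0.63), luteolin 1 (-0.86) or luteolin 3 (-0.95), the adjusted p running from 0.0125 to 0.127 over the alternatives that left out at most 1 library. Leaving out vehicle 1, vehicle 2 and luteolin 3, the libraries with the most muscle transcripts, leaves 1 vehicle library (vehicle 3) against 2 luteolin libraries. The vehicle library is then assumed to vary like the luteolin pair, and a missed threshold in so small a fit says nothing about muscle. In that fit 8 genes of the set were higher and 13 lower, where 38.9% of all tested genes were called. The log2 ratios of the genes that no longer passed were 0.49 for Pfkfb4, 0.21 for Pdha1, -0.40 for Eno2, -0.61 for Pdk3 and -1.73 for Pdk4, and Pgd newly passed as lower (-0.28).

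**Figure D4:**
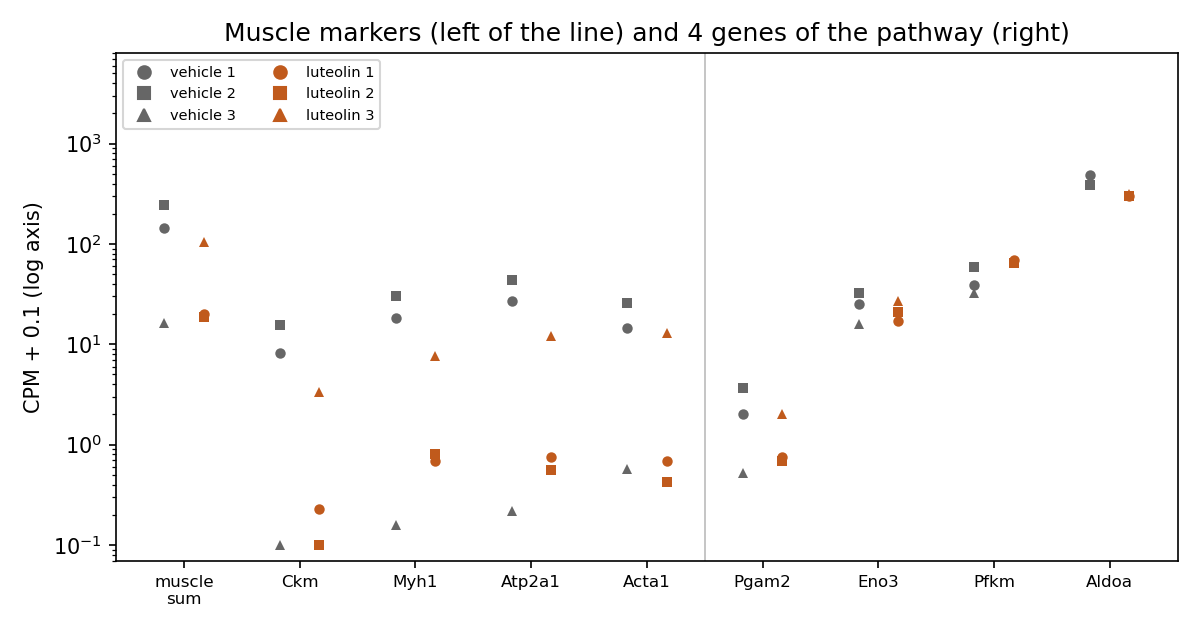
CPM plus 0.1 on a log axis in each library for the sum of 16 muscle markers, 4 single markers and, right of the line, Pgam2, Eno3, Pfkm and Aldoa. The muscle sum is 244 CPM in vehicle 2 and 16.03 CPM in vehicle 3, Pgam2 shows the same order among the vehicle libraries, and Aldoa separates by treatment.

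Among the pyruvate dehydrogenase kinases Pdk1 and Pdk2 rose and Pdk3 fell, and the scarce Pdk4 was lower. Pdk1 (gene ID 228026), a kinase known to be induced under low oxygen, stood at 76.3, 69.4 and 71.7 CPM with vehicle and 133, 122 and 127 CPM with luteolin, 1.76-fold higher (log2 ratio 0.82, SE 0.062, edgeR's adjusted p = 9.68e-05), the smallest p of the set. Pdk2 (gene ID 18604), a widely expressed kinase whose promoter window holds the E-box, stood at 32.4, 44.8 and 32.4 CPM against 89.0, 80.3 and 85.1 CPM, 2.32-fold higher (log2 ratio 1.22, SE 0.13, edgeR's adjusted p = 0.000313). Every luteolin library lay above every vehicle library for both. Among all tested genes, 4.61% were called with a log2 ratio above 1. Pdk3 (gene ID 236900) stood at 30.0, 28.6 and 27.4 CPM with vehicle and 20.2, 15.9 and 16.9 CPM with luteolin, 1.63-fold lower (log2 ratio -0.70, SE 0.11, edgeR's adjusted p = 0.00124). Pdk4, the kinase known from fasting and from use of fatty acids, was scarce, with 18, 31 and 20 counts with vehicle and 8, 3 and 3 counts with luteolin (log2 ratio -2.14, SE 0.47, edgeR's adjusted p = 0.00647). Pdk4 passed the filter only through the vehicle group, so its call is a description only. Its log2 ratio was -0.40 with log2(FPKM + 1) and -1.52 with log2(FPKM + 0.1). No library of one group overlapped the other for any of the 4, which for Pdk4 is likewise a description only. Across the 4 genes the summed TPM was 68.4 ± 4.84 with vehicle and 112 ± 7.05 with luteolin (SD, n = 3), and the share of Pdk2 in it went from 39.8% ± 5.47 to 56.9% ± 0.17 while that of Pdk3 went from 27.4% ± 2.80 to 8.72% ± 0.56. Pdk1 held 31.8% ± 2.91 and 34.3% ± 0.45. The length implied for Pdk3 by its counts and FPKM was 2184, 2358 and 2176 bases with vehicle and 2725, 2709 and 2496 bases with luteolin. The mean TPM of Pdk3 (18.7 against 9.79) therefore fell by more than its mean CPM (28.7 against 17.6), and its share rests on TPM.

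The subunits of the complex that belong to the set moved little, apart from Pdhx. Pdhx (gene ID 27402), which anchors the E3 component, stood at 28.8, 30.3 and 29.3 CPM with vehicle and 49.1, 43.9 and 44.1 CPM with luteolin, a log2 ratio of 0.63 (SE 0.07, edgeR's adjusted p = 0.000347). Pdha1, the E1 alpha subunit that the kinases phosphorylate, was higher by 1.13-fold (203 ± 4.49 CPM with vehicle, 230.0 ± 0.721 CPM with luteolin, SD, n = 3, edgeR's adjusted p = 0.0186). That call ended with library sizes only (log2 ratio 0.062), with upper quartile factors (0.082), on both FPKM scales (0.056 and 0.057) and without vehicle 3 (0.14), luteolin 1 (0.16), luteolin 2 (0.17) or luteolin 3 (0.17), with an adjusted p of 0.00119 to 0.351 over the alternatives, and its counts had decimals in all 6 libraries. Pdhb, the E1 beta subunit (log2 ratio 0.013, SE 0.07), and Dlat, the E2 core (-0.17, SE 0.085), did not pass. Pdhb passed after the length correction (0.36), and Dlat with library sizes only (-0.28), with upper quartile factors (-0.27), on the FPKM scales (-0.27 and -0.28) and without vehicle 2 (-0.24). The summed TPM of the 4 subunits in the set was 258 ± 10.5 with vehicle and 282 ± 2.25 with luteolin (SD, n = 3). Dld, the E3 component and outside the set, fell (log2 ratio -0.25, SE 0.069, edgeR's adjusted p = 0.0179).

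In the pentose phosphate pathway the entry enzyme and transaldolase rose. G6pdx (gene ID 14381), glucose-6-phosphate dehydrogenase, which produces NADPH, stood at 254, 255 and 254 CPM with vehicle and 342, 358 and 357 CPM with luteolin, a log2 ratio of 0.47 (SE 0.052, edgeR's adjusted p = 0.000348). Taldo1 (gene ID 21351), transaldolase of the non-oxidative part, stood at 227, 236 and 243 CPM against 334, 369 and 369 CPM, a log2 ratio of 0.60 (SE 0.065, edgeR's adjusted p = 0.000307, and 0.99 after the length correction). The vehicle libraries of both genes, vehicle 2 included, lay within a narrow band below all luteolin libraries. The enzymes of the set between them did not pass: Pgls, the lactonase (log2 ratio 0.028, SE 0.077), Pgd, which makes more NADPH (-0.18, SE 0.079), and Rpia, the ribose phosphate isomerase (-0.12, SE 0.067). Rpe, the epimerase of this part of the pathway and outside the set, fell (log2 ratio -0.24, SE 0.065, edgeR's adjusted p = 0.0162). Pgd passed as lower without vehicle 2 (-0.26), with library sizes only (-0.29), with upper quartile factors (-0.27) and on the FPKM scales (-0.29 and -0.30). Rpia passed as lower with library sizes only (-0.24), with upper quartile factors (-0.22) and on the FPKM scales (-0.24), whereas Pgls passed as higher after the length correction (0.48). The summed TPM of the 5 genes was 878 ± 14.7 with vehicle and 1109 ± 33.2 with luteolin (SD, n = 3), against 6029 ± 1086 and 3159 ± 126 for glycolysis and lactate formation. Tkt, transketolase, the partner of transaldolase and outside the set, stood at 3664, 4163 and 4442 CPM with vehicle and 6527, 6223 and 7067 CPM with luteolin (log2 ratio 0.69, SE 0.092). Tkt was counted both among the epithelial markers and among the other genes of these pathways.

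Other genes of these pathways, outside the set, moved both ways. Of 40 listed, 36 were in the table and 26 tested: 14 fell, 8 rose and 4 did not pass, and the median was -0.23. Among all tested genes 30.4% fell and 28.5% rose. Besides Pkm, the falling genes included Hk3, the hexokinase of leukocytes (-4.49, SE 0.53, at 0.26 CPM or less with luteolin, so that it passed the filter only through the vehicle group), Pfkfb1 (-1.43, SE 0.31), Prps1, which turns ribose phosphate into a nucleotide precursor (-1.05, SE 0.15), and Pck2, the mitochondrial carboxykinase (-0.60, SE 0.075). The rising genes included Mpc2, a subunit of the carrier that brings pyruvate into mitochondria (0.88, SE 0.065), Shpk, a sugar kinase that feeds the pentose phosphate pathway (0.83, SE 0.16), and Pcx, pyruvate carboxylase (0.53, SE 0.08). The phosphatases that reverse the Pdk enzymes differed, Pdp1 falling (-0.44, SE 0.11) and Pdp2 rising (0.36, SE 0.11).

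Among carriers of lactate, outside the set, Slc16a1 and Slc16a3 fell, Slc16a7 did not pass (log2 ratio 0.20, SE 0.21) and Slc16a4 and Slc16a8 were too low to be tested. Slc16a1, a proton-coupled carrier of lactate and pyruvate, stood at 57.0, 38.1 and 50.3 CPM with vehicle and 6.32, 7.34 and 5.08 CPM with luteolin (log2 ratio -2.95, SE 0.19), and Slc16a3, the carrier known for lactate export, at 11.4, 8.66 and 8.997 CPM against 2.13, 0.845 and 0.901 CPM (-2.90, SE 0.35). Slc2a1, the main glucose carrier of epithelia, was at 143, 90.2 and 124 CPM against 73.4, 78.8 and 76.8 CPM (-0.64, SE 0.15). Bsg, the chaperone of the lactate carriers, did not pass (0.061, SE 0.073). Of 11 tested transport genes 4 fell, 1 rose and 6 did not pass (median -0.44), where 30.4% of all tested genes fell and 28.5% rose. Slc2a3, counted among those that fell, was at 0.645 CPM or less with luteolin and passed the filter only through the vehicle group.

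Known hypoxia-inducible genes and regulators outside glycolysis moved both ways. Of 21 tested, 10 fell, 9 rose and 2 did not pass (median -0.12), where 30.4% of all tested genes fell and 28.5% rose. Ankrd37, counted among those that fell, was at 0.708 CPM or less with luteolin and passed the filter only through the vehicle group. Hif1a, an oxygen-regulated factor subunit, fell (-0.50, SE 0.11) and its relative Epas1 rose (0.62, SE 0.094). Vegfa (-1.48, SE 0.17), Car12 (-2.43, SE 0.27) and P4ha1 (-0.82, SE 0.096) fell, and Egln3 (1.71, SE 0.14), Kdm3a (0.72, SE 0.083) and Ndrg1 (0.71, SE 0.14) rose. Genes of the tricarboxylic acid cycle mostly fell by small amounts: 10 of 16 fell, 1 rose and 5 did not pass (median -0.21), from Fh1 at -0.65 (SE 0.097) to Sucla2 at -0.17 (SE 0.06) among those that fell, and Ogdh rose (0.42, SE 0.052). The lists were chosen with earlier results of these data known.

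**Figure D5:**
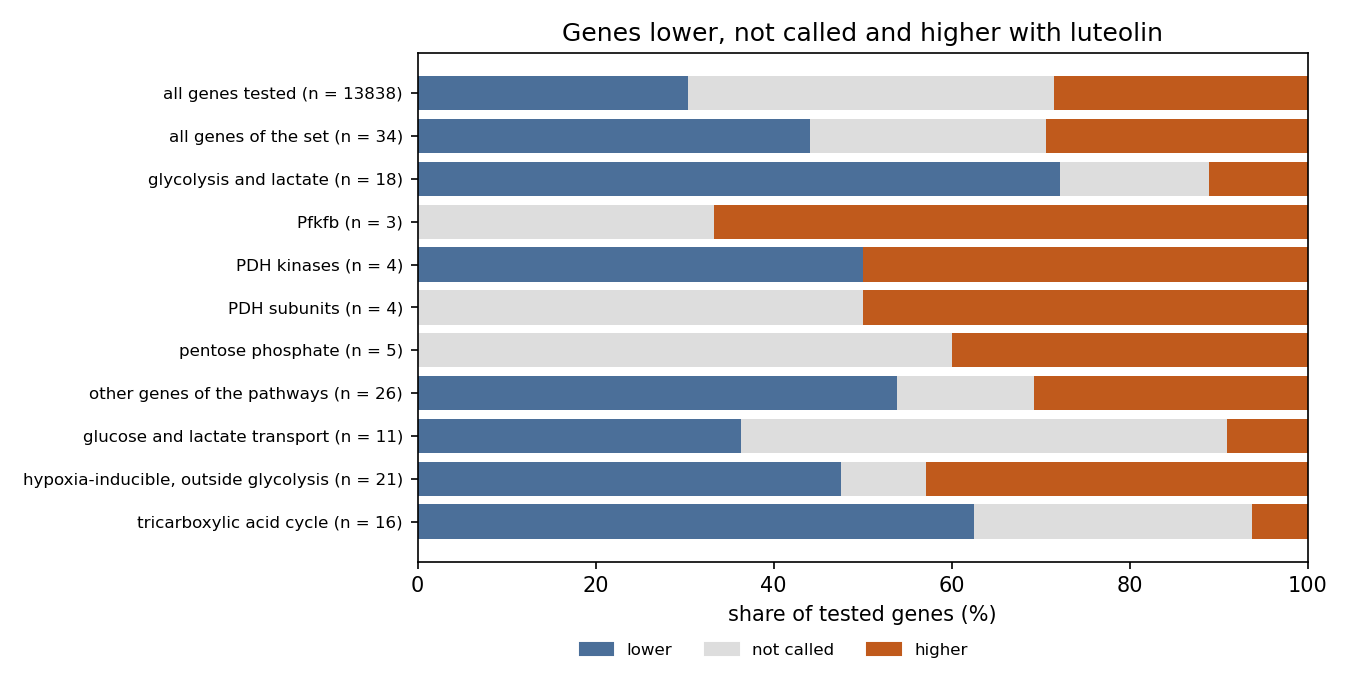
Share of tested genes that were lower, not called and higher with luteolin at an edgeR adjusted p under 0.05, for all tested genes, the set, its branches and 4 lists of related genes, with the number of genes beside each bar. Glycolysis and lactate formation has 13 of 18 genes lower, while the Pfkfb, complex subunit and pentose phosphate bars hold 0 lower genes.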

How the data were processed

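RNA sequencing of whole mouse corneas (Trizol RNA, Illumina TruSeq libraries, per the labels' protocols) was analysed in 6 libraries, 3 vehicle and 3 luteolin, grouped by title. Bowtie2 2.2.5, RSEM 1.2.12 and the mm9 build are listed in the submitters' processing notes. The sources used here do not give annotation or strand use, so overlapping or antisense genes may share reads. The authors deposited estimated counts, FPKM, TPM and a normalized count signal per gene, per the file headers. The normalized signal was left out, as were 8 columns that average a group.

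Rounded estimated counts were analysed in R 4.3.3 with edgeR 4.0.16 (filterByExpr with a minimum count of 10 and a total of 15, leaving 13838 of 17794 genes; TMM; quasi-likelihood test of luteolin against vehicle without a block; Benjamini-Hochberg over all tested genes, threshold 0.05). A log2 ratio is luteolin over vehicle. Its SE was obtained by dividing it by the root of the F statistic. CPM used the TMM factors, and levels of different genes were compared only as deposited TPM. Counts over 0.001 from a whole number were taken as decimal. The gene set, the lists and the tests were chosen with earlier results of these data known. Every gene of the set was described. Genes named from the other lists were chosen after their values were seen. Alternatives were DESeq2 1.42.0, other scaling and filters, limma-trend (limma 3.58.1) on log2(FPKM + 1) and log2(FPKM + 0.1), a replicate block, a loess correction for gene length (span 0.3), a muscle covariate and leaving out each library. Omitting the 3 libraries with the most muscle transcripts was added after seeing the data. Scripts were tested on simulated data with few changed genes, balanced in direction, or none. That test does not cover data in which most tested genes are called.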

Additional observations from a re-analysis of the deposited data

How the results depend on the processing

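Across the 34 genes and 17 alternative settings, 508 of 578 values kept their direction and their side of the threshold, 31 no longer passed, 22 newly passed and 17 changed sign. The set held 8 to 12 higher and 11 to 19 lower genes under those settings, against 10 and 15. The calls over all tested genes moved too. From 2787 (log2(FPKM + 1)) to 5573 (length correction) were higher, against 3949 in the reported test. From 2954 (length correction) to 5247 (log2(FPKM + 0.1)) were lower, against 4208. Its median log2 ratio of -0.31 became -0.40 with upper quartile factors, -0.42 with library sizes only, -0.42 with log2(FPKM + 1), -0.50 with log2(FPKM + 0.1), -0.086 after the length correction and -0.24 with the muscle covariate, and ran from -0.38 to -0.25 with 1 library left out. In the order of the named settings, the median of all tested genes was -0.11, -0.13, -0.12, -0.14, 0.17 and -0.0063. It was -0.017 in the reported test.

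Sign changes concerned genes that had not passed in the reported test. In the order upper quartile factors, library sizes only, log2(FPKM + 1) and log2(FPKM + 0.1), Pdhb had log2 ratios of -0.083, -0.10, -0.11 and -0.11, and Pgls of -0.068, -0.087, -0.12 and -0.12. After the length correction Pgd was at 0.029 and Rpia at 0.15. With the muscle covariate Pgam2 was at 0.056 and Eno3 at 0.087. Leaving out 1 library gave -0.44 to 0.072 for Eno3 (above 0 without vehicle 2), -0.042 to 0.037 for Pdhb and -0.052 to 0.056 for Pgls. Without vehicle 1, vehicle 2 and luteolin 3, an alternative added after seeing the data that leaves only vehicle 3, the vehicle library with the least muscle transcripts, against 2 luteolin libraries, the values were 0.55 for Pgam2, 0.24 for Eno3, -0.072 for Pdhb and -0.042 for Pgls. The cause was not tested.

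Replicate numbers are shared between the groups, but deviations of same-numbered libraries correlated at -0.15, 0.027 and 0.012, and not every library correlated best with its own. With 3 libraries per group, these values cannot show whether same-numbered samples shared any handling. With the replicate as a block, 7934 of all tested genes were called against 8157, 10 genes of the set were higher and 15 lower, and the call of every one of the 34 genes was as without the block. Depth limited Pdk4, with 3 to 31 counts, and Pgam2, with 7 to 61 counts.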

Other observations

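The length that the deposited values imply for Eno3 (from its counts and FPKM) varied 2.40-fold between libraries, from 1686 bases in vehicle 2 to 4045 bases in vehicle 3, whereas it varied by at most 1.25-fold for every other gene of the set with an estimate (Pdk4 was too scarce for one). Its TPM therefore spread more than its counts, with 17.5 ± 11.3 TPM for vehicle and 10.8 ± 4.15 TPM for luteolin (SD, n = 3). The 1.25-fold variation was that of Pdk3, whose implied length was greater in every luteolin library than in every vehicle library. The set has 4 genes on chromosome X, of which G6pdx and Pdha1 were higher and Pdk3 and Pgk1 lower with luteolin.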
